A study of Mus musculus with 22 samples.

Results

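Cytoplasmic ribosomal protein genes encode the protein subunits of the ribosomes that translate nuclear mRNAs. They were picked by symbol, as Rpl or Rps followed by a number and at most one of the letters a, x, l or y, together with Rplp0, Rplp1, Rplp2, Rpsa and Fau, and this gave 84 of the 55335 genes in the deposited table. Of these members, 51 carried large subunit symbols (Rpl) and 33 small subunit symbols (Rps, or Fau). The annotation listed 81 of them as protein coding and 3 (Rpl32l, Rpl6l and Rps4l) as pseudogenes, spread over 20 chromosomes. The libraries came from preimplantation embryos of B6D2F1 mice in which H2A.Z, a histone variant encoded by H2afz and H2afv, had been knocked down (KD). A mix of 3 siRNA pairs (about 10 pl at 20 µM) was injected into zygotes at pronuclear stage 3, between 20 and 22 h after hCG, and the treatment of the control embryos of these libraries was not given in the sources used here, whereas those measured by quantitative PCR in the study were not injected. Each library was made by Smart-seq2, a full-length cDNA method primed on polyA RNA, from 15 embryos pooled, with 16 to 18 preamplification cycles and paired 150-bp reads. The 22 libraries formed 6 groups, namely 2-cell embryos at 43 to 44 h after hCG (4 control and 3 KD libraries), morulae at 78 h (4 control and 3 KD) and blastocysts at 94 h (4 control and 4 KD). In the study, KD strongly reduced the formation of blastocysts but not development to the morula. Comparisons of KD and control blastocysts therefore also hold any difference in developmental progress at 94 h, whose part was not tested.

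Most of these proteins are built into each ribosome in fixed proportion to its ribosomal RNAs, and their genes are among the most highly transcribed in growing cells. Their mRNAs carry a 5′ terminal oligopyrimidine (TOP) tract, a C at the transcription start followed by a run of pyrimidines, through which nutrient signalling sets their translation. A mouse embryo starts with ribosomes stored in the oocyte and makes its own after the zygotic genome is activated, while H2A.Z sits in nucleosomes beside active promoters and enhancers.

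FPKM values per library are given below in the order of the library numbers, which were 1, 2, 4 and 5 for 2-cell control embryos, 1, 2 and 4 for 2-cell KD embryos, 1, 2, 7 and 8 for control morulae, 1, 2 and 6 for KD morulae, 1, 4, 5 and 6 for control blastocysts and the same numbers for KD blastocysts. H2afz stood at 1244, 1236, 905 and 1178 FPKM in 2-cell control embryos and at 415, 139 and 112 in 2-cell KD embryos. In morulae it was 1158, 1336, 1511 and 1421 in control and 30.3, 25.7 and 29.0 in KD libraries, and in blastocysts 2656, 2431, 1945 and 2055 in control and 64.2, 67.2, 53.2 and 57.6 in KD libraries. The KD libraries lay below every control library of their stage, and 2-cell KD library 1 kept more H2afz than the other KD libraries. H2afv was 111, 118, 96.8 and 113 in 2-cell control and 97.6, 85.4 and 83.7 in 2-cell KD embryos, 97.3, 113, 100.005 and 92.5 in control and 12.9, 11.01 and 9.90 in KD morulae, and 49.9, 62.0, 54.5 and 63.5 in control and 19.9, 16.9, 10.6 and 13.9 in KD blastocysts. Groups are said to overlap, and libraries to be higher or lower in a number of cases, on these values as deposited unless scaling is named. The H2afv groups overlapped at the 2-cell stage and were apart in morulae and blastocysts. For H2afz the log2 fold change between KD and control was -2.53 at the 2-cell stage (limma adjusted p = 0.531, lower in 3 of 3 KD libraries), -5.41 in morulae (adjusted p = 1e-07) and -5.19 in blastocysts (adjusted p = 3.69e-08). The 2-cell value passed the threshold only with KD library 1 left out (adjusted p = 0.000859), and so the labels matched the targeted transcript, with KD less deep at that stage. For H2afv the log2 fold change was -0.23 (limma adjusted p = 0.838), -2.94 (adjusted p = 2.99e-06) and -1.86 (adjusted p = 8.02e-05) at these stages.

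Summed markers of the 2-cell stage, oocyte and trophectoderm followed the stage labels in control embryos. The summed FPKM of 5 transcripts of the 2-cell programme (the Zscan4 cluster, Zfp352 and Tcstv3) averaged 465 in 2-cell control embryos, 10.5 in control morulae and 1.47 in control blastocysts, and 497, 11.5 and 12.9 in the KD groups, where it was no lower in blastocysts than in morulae. Oocyte genes (Zp3, Zp2, Gdf9, Bmp15 and Mos) summed to 219.6, 5.67 and 1.89 in control and 199, 7.56 and 2.81 in KD embryos. The 7 trophectoderm genes (Cdx2, Gata3, Krt8, Krt18, Tfap2c, Elf5 and Eomes) summed to 11.003, 129 and 1195 in control and 9.11, 98.8 and 678 in KD embryos. Inner cell mass genes (Pou5f1, Nanog, Sox2, Klf4 and Esrrb) reached 13.7, 145 and 152 in control and 18.4, 47.3 and 196 in KD embryos, and primitive endoderm genes (Gata4, Gata6, Sox17 and Pdgfra) 5.10, 14.4 and 13.0 in control and 3.30, 9.84 and 19.98 in KD embryos, so these sums were not or hardly higher in control blastocysts than in control morulae. Single genes differed. From control morulae to control blastocysts, means rose for Sox2 (0.125 and 1.67), Nanog (106 and 132), Sox17 (0.0025 and 0.596) and Pdgfra (0.102 and 1.72). They fell for Pou5f1 (31.9 and 13.96), Klf4 (6.79 and 4.49), Esrrb (0.249 and 0.145), Gata4 (0.0589 and 0.0404) and Gata6 (14.2 and 10.6). Of the trophectoderm genes, Tfap2c fell (17.5 and 6.58). Among genes of cells outside the embryo, the cumulus gene Ptx3 was listed at 0 in every library, Tnfaip6 averaged 1.68 FPKM in control and 1.68 in KD 2-cell embryos, Amhr2 averaged 11.9, 7.81, 5.05, 4.89, 5.16 and 4.68 FPKM in control and KD embryos of the 2-cell, morula and blastocyst stages in turn, and the cumulus list summed to at most 18.4 FPKM in a library, while the sperm list summed to at most 1.77. In bulk libraries of whole embryos, fewer cells of a type and less RNA per cell cannot be told apart, and the part of the lower trophectoderm sum of KD blastocysts in the results on ribosomal protein genes was not tested. That sum was made up mostly of Krt8 (343 FPKM in control and 239 in KD blastocysts) and Krt18 (799 and 389.7), and of the other genes Elf5 (1.66 and 0.105), Gata3 (34.9 and 28.9) and Eomes (8.01 and 5.92) had lower means in KD blastocysts and Cdx2 (1.79 and 1.89) and Tfap2c (6.58 and 13.2) level or higher ones. Of the primitive endoderm genes, Sox17 (0.596 in control and 0.277 in KD blastocysts) and Pdgfra (1.72 and 0.595) had lower means in KD blastocysts. Gata6 (10.6 and 19.0) and Gata4 (0.0404 and 0.0659) had higher ones.

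The family as a whole was a small part of the 2-cell transcriptome and a large part later. Its summed FPKM, as a percentage of the summed FPKM of all genes, was 2.17, 1.93, 2.04 and 2.17% in the 2-cell control libraries and 2.01, 2.37 and 1.81% in the 2-cell KD libraries, whose ranges overlapped. Control morulae held 8.97, 8.50, 8.74 and 8.59% and KD morulae 9.06, 9.16 and 9.40%, so that each KD library lay above each control library by a narrow margin. In blastocysts the control libraries held 7.77, 7.70, 8.36 and 8.71% and the KD libraries 9.68, 10.6, 9.58 and 9.37%, again without overlap. Group means ± SD were 2.08 ± 0.119 (n = 4) and 2.06 ± 0.288 (n = 3) at the 2-cell stage, 8.70 ± 0.203 (n = 4) and 9.21 ± 0.175 (n = 3) in morulae, and 8.13 ± 0.484 and 9.79 ± 0.521 (n = 4 each) in blastocysts, and no test was run on this score. With the genes of the mitochondrial genome left out of the total, the means were 2.701, 2.76, 10.1, 11.1, 9.82 and 11.4% in the same order. Those mitochondrial transcripts themselves took 23.1 and 25.3% of the 2-cell total, 13.9 and 17.1% in morulae and 17.2 and 14.4% in blastocysts (control and KD). The level of the median member went from 80.8 FPKM in 2-cell control embryos to 517 in control morulae and 601 in control blastocysts.

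**Figure D1:**
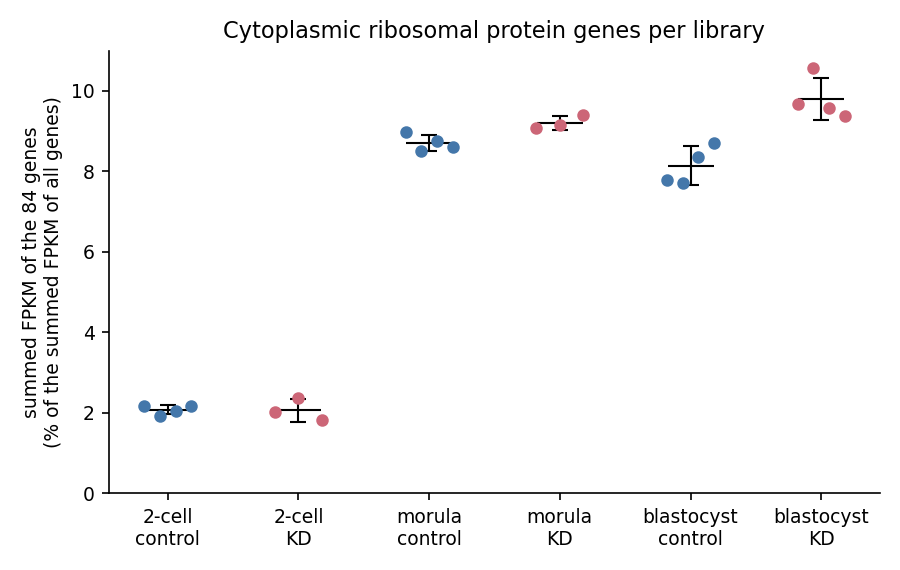
Summed FPKM of the 84 cytoplasmic ribosomal protein genes as a percentage of the summed FPKM of all genes, with a point for each library (blue, control; red, KD) and the group mean ± SD in black. The 2-cell libraries lie between 1.81 and 2.37% and the KD blastocysts between 9.37 and 10.6%, above every control blastocyst.

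Members differed widely in level. In FPKM, which is per length, the 90th percentile of the members was 6.97 times the 10th in 2-cell control embryos, 8.07 times in control morulae and 5.64 times in control blastocysts. Rplp0, the base of the ribosomal stalk, and Rpl19, a large subunit protein, were among the highest members. Rplp0 measured 454, 427, 629.8 and 478 FPKM in 2-cell control, 1651, 1621, 1305 and 1404 in control morulae and 1049, 1264, 1214 and 1187 in control blastocysts. Its KD values were 372, 538 and 279 in 2-cell embryos, 1648, 1690.3 and 1555 in morulae and 1613, 1708, 1365 and 1725 in blastocysts, with no 2-cell library reaching the later ones. In control morulae Rpl19 averaged 1417 FPKM, and the lowest members were the pseudogenes Rpl32l (8.90) and Rpl6l (34.6) and the paralog Rpl3l (0.104). No member exceeded 1000 FPKM on average in 2-cell embryos, while 14 did in control morulae, 17 in KD morulae, 18 in control and 20 in KD blastocysts. Ranked by mean level, the 84 members of 2-cell and morula control embryos had a Spearman correlation of 0.833, those of morula and blastocyst control embryos 0.945, and KD and control of the same stage 0.982, 0.985 and 0.977. These correlations are across genes, which are not independent replicates. The 5 highest members supplied 24.2% of the family's FPKM in 2-cell control embryos, 17.4% in control morulae and 15.9% in control blastocysts, and large subunit genes 54.1, 57.8 and 56.2%.

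Many of these genes share sequence with processed pseudogenes, and reads from such stretches can be assigned to either copy. Of the 84 members, 72 shared at least one 100-base window of their transcripts with a pseudogene and 75 with any other gene, 63 had at least 50% of their windows to themselves, and 9 had every window to themselves. Levels of the members below that mark are uncertain, among them Rpl3 (40.1% unique windows), Rpl13 (21.1%), Rpl7a (26.5%), Rpl10 (31.6%) and the pseudogene Rpl6l (38.1%). The paralogs Rpl10l, Rpl3l, Rps27l and Rpl39l had only unique windows, and Rpl8 (98.6%) and Rps4l (98.3%) nearly so. Rps2 (56.2%), Rps29 (75.3%), Rpl14 (63.1%) and Rpl7 (74.0%) fell in between.

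From the 2-cell stage to the morula, control embryos raised nearly the whole family. All 84 members passed the filter (at least 3 libraries with FPKM no lower than 1), 83 were called higher and 1, Rpl3l, lower by limma at an adjusted p under 0.05 (Benjamini-Hochberg over all genes tested), where 43% of the 13689 genes tested were called higher and 40.3% lower. Beyond a log2 fold change of 1 stood 81 members, against 32.2% of all genes. The median log2 fold change was 2.50 for the members and 0.10 for all genes tested, and dividing by the library total moved the latter to -0.28 and the members to 2.12, with the members 2.40 above all genes under the main scaling and 2.40 under this one. These values set the family against the other genes of a library and not per embryo. Large subunit genes had a median of 2.57 (51 tested) and small subunit genes of 2.37 (33 tested). Nothing in the labels says that the libraries came from separate cultures or parents, and p-values measure only the spread between these libraries.

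The steepest members were large subunit proteins. Rpl3 (chr15:80077791-80091868, minus strand), whose product lies near the peptidyl transferase centre, went from 18.6, 21.6, 28.0 and 23.8 FPKM in 2-cell control libraries to 732, 619, 697 and 724 in control morulae (log2 fold change 4.86 ± 0.15 SE, limma adjusted p = 1.07e-10, higher in 4 of 4 morula libraries). Rpl7 went from 83.7, 112, 77.3 and 121 to 1400.2, 1677, 1624 and 1440.2 FPKM (log2 fold change 3.96 ± 0.20 SE, limma adjusted p = 4.6e-09, higher in 4 of 4). Rpl14 went from 46.9, 58.5, 60.04 and 61.2 to 831, 742, 771 and 751 FPKM (log2 fold change 3.75 ± 0.14 SE, limma adjusted p = 4.8e-10, higher in 4 of 4). In these genes the lowest morula library stood more than 10 times above the highest 2-cell library, and the values within each stage were close together. At the other end Rpl41, which encodes the smallest ribosomal protein, was already at 586, 551, 479 and 578 FPKM in 2-cell control libraries and reached 856, 962, 1184 and 1175 in morulae (log2 fold change 0.91 ± 0.20 SE, limma adjusted p = 0.00102). Rpl22, which also binds viral and cellular RNAs, was the member called higher whose groups overlapped, because 2-cell control library 1 held 76.2 FPKM and the others 20.1, 25.2 and 19.0, against 67.1, 58.4, 74.2 and 70.3 in morulae (log2 fold change 1.16 ± 0.38 SE, limma adjusted p = 0.0137). Without that library its log2 fold change was 1.60 (limma adjusted p = 8.8e-06), and dividing by the library total gave 0.78 (adjusted p = 0.0690). Removing the filter on low FPKM also ended its call (adjusted p = 0.0693).

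**Figure D2:**
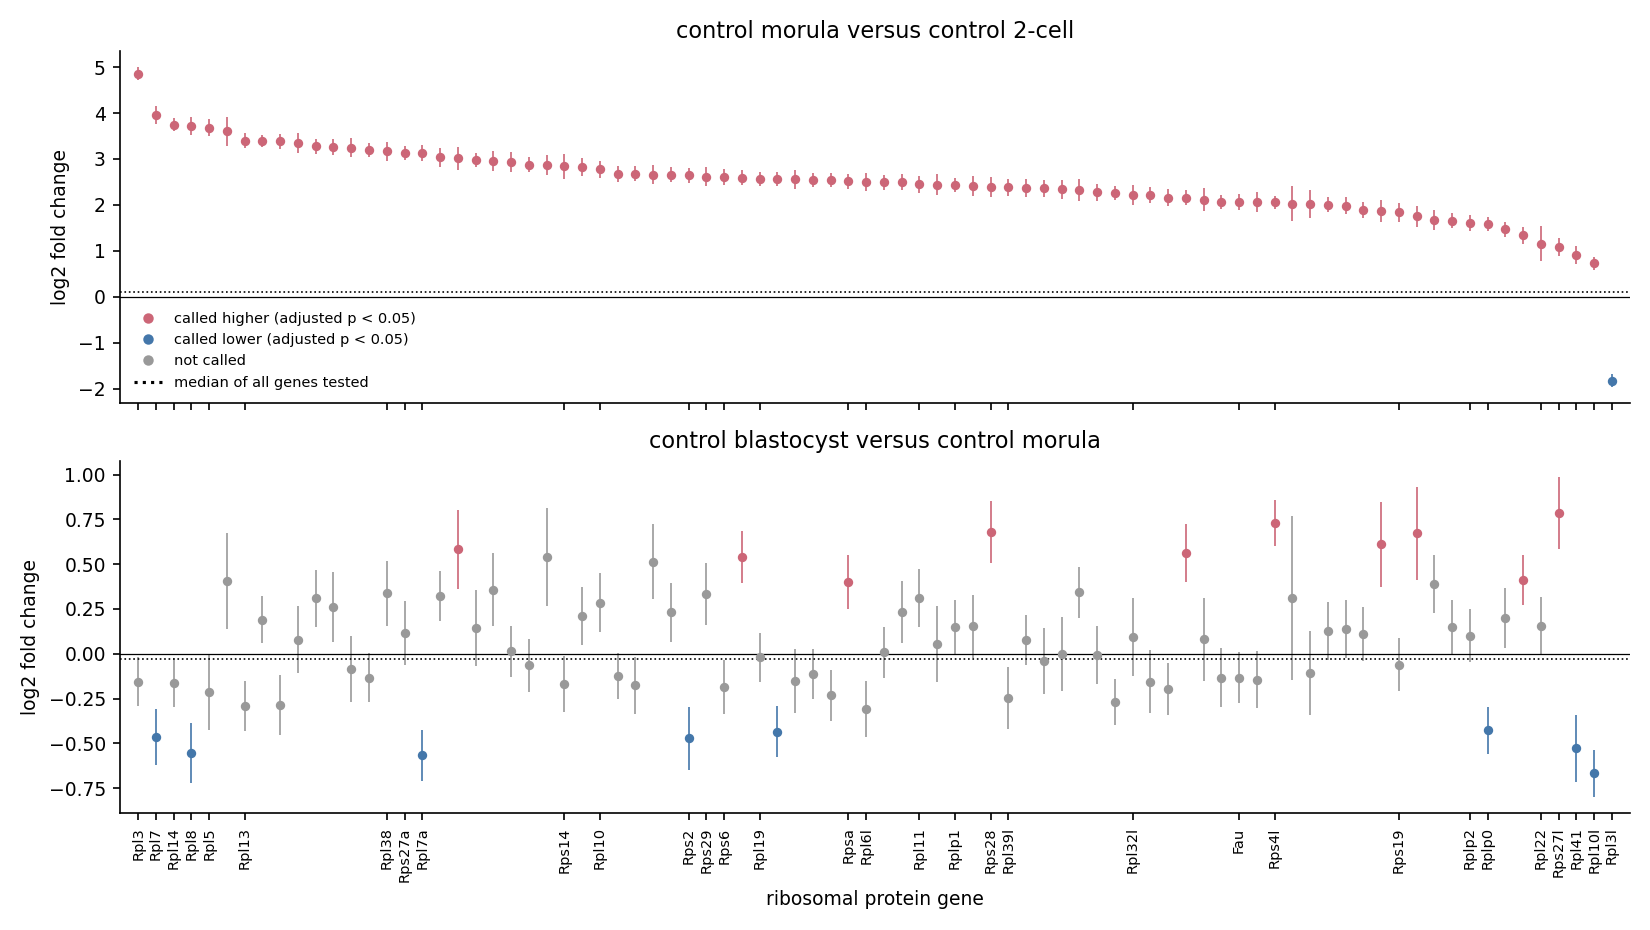
Log2 fold change ± SE of each ribosomal protein gene between control stages, ordered by the change from 2-cell to morula and labelled for a part of the genes, with genes called higher in red, called lower in blue and not called in grey, and the median of all genes tested as a dotted line. In the upper panel 83 genes lie above 0 and Rpl3l below, and in the lower panel 10 are called higher and 8 lower, a split that became 20 to 5 on FPKM as deposited and 6 to 17 after division by the library total.

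Subunits with other tasks moved in the same direction. The stalk proteins, which recruit elongation factors, had log2 fold changes of 1.59 (Rplp0), 2.44 (Rplp1) and 1.60 (Rplp2), with limma adjusted p from 3.98e-08 to 2.96e-06. Rpl5 and Rpl11, whose proteins bind MDM2 when ribosome assembly stalls, changed by 3.67 and 2.45 (limma adjusted p = 4.95e-09 and 1.41e-07). Rps6, the substrate of S6 kinase, changed by 2.61 (limma adjusted p = 4.45e-08). Rps27a and Fau, which encode a ubiquitin and a ubiquitin-like protein fused to a ribosomal protein, changed by 3.14 and 2.07 (limma adjusted p = 3.96e-09 and 2.52e-07). Rps19, Rps14, Rpsa, Rpl10 and Rpl38, which are mutated in inherited or acquired disorders or control the translation of particular mRNAs, had log2 fold changes of 1.84, 2.85, 2.51, 2.77 and 3.17, with limma adjusted p of at most 4.55e-06. In each of these genes all 4 morula control libraries stood above all 4 of the 2-cell stage.

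Some subunit paralogs departed from the family. Rpl3l (chr17:24727820-24736143, plus strand), the form of Rpl3 known from striated muscle, was at 2.83, 2.80, 2.57 and 3.40 FPKM in 2-cell control and 3.45, 3.66 and 2.68 in 2-cell KD libraries, and at 0.0694, 0.129, 0.202 and 0.0162 in control morulae (log2 fold change -1.82 ± 0.13 SE, limma adjusted p = 1.04e-07, lower in 4 of 4). It was listed at 0 in 3 of 4 control blastocysts and in 2 of 4 KD blastocysts, and it did not pass the filter after the 2-cell stage. As a share of the summed FPKM of Rpl3l and Rpl3, it made up 11.4% in 2-cell control embryos and 0.0154% in control morulae. Rpl10l, an autosomal retrocopy of the X-linked Rpl10 that replaces it in male meiosis, changed by 0.73 ± 0.15 SE (limma adjusted p = 0.000514, higher in 4 of 4) while Rpl10 changed by 2.77, so that its share of the pair was 26.2% in 2-cell control embryos, 7.84% in control morulae and 4.21% in control blastocysts. Rps27l took 79.3, 69.1 and 71.2% of its pair with Rps27 at these stages, and Rpl39l, a testis-enriched relative of Rpl39, 59.8, 60.1 and 56.6%. Rps4l, annotated as a pseudogene, took 32.2, 17.1 and 26.7% of its pair with Rps4x. Outside the symbol rule, Rpl22l1 took 29.9, 44.5 and 70.8% of its pair with Rpl22, Rpl36al 83.0, 52.4 and 57.2% with Rpl36a, and Rpl7l1 24.2, 7.76 and 6.86% with Rpl7.

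From morula to blastocyst the control embryos changed a minority of the family, in both directions. Of 83 members tested, 10 were called higher and 8 lower, where 27.6% of all 11834 genes tested were higher and 29.1% lower. The members called higher were 8 small subunit genes (among them Rps27l, Rps4l, Rps28, Rps27, Rps23, Rps20 and Rpsa) and 2 large subunit genes (Rpl17 and Rpl28), and those called lower were 7 large subunit genes (Rpl10l, Rpl7a, Rpl8, Rpl41, Rpl7, Rpl29 and Rplp0) and 1 small subunit gene (Rps2). Of these, Rps27, Rps23, Rps20, Rpl17, Rpl28 and Rpl29 are named after their values were seen. The median log2 fold change of the members was 0.08, with -0.03 for all genes, and turned to -0.0300 after division by the library total, with -0.11 for all genes. The members stood above all genes by 0.109 here, by 0.122 on FPKM as deposited and by 0.0846 after division by the library total. The split of calls moved with the scaling, to 20 higher and 5 lower on FPKM as deposited (all genes, 30.3 and 25.01%) and to 6 and 17 after division by the library total (all genes, 24.0 and 30.8%). On FPKM as deposited the members called higher held as many large as small subunit genes, so the excess of small subunit genes among them depended on the scaling. Those called lower there were all large subunit genes. It also moved with single libraries, since 5 were called higher without morula control 8 and 14 without blastocyst control 4, and 4 were called lower without blastocyst control 5.

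Rps27l, which was described as a p53 target and binds MDM2, gave 673, 587, 849 and 779 FPKM in control morulae and 1613, 1126, 1166 and 1394 in control blastocysts (log2 fold change 0.79 ± 0.20 SE, limma adjusted p = 0.00571, higher in 4 of 4). Rps4l (chr6:148354656-148355598, plus strand) gave 278, 279, 231 and 229 and 391, 473, 486 and 441 FPKM (log2 fold change 0.73 ± 0.13 SE, limma adjusted p = 0.000477, higher in 4 of 4). Rps28 gave 208, 226, 263 and 238 and 419.7, 338, 370.2 and 475 FPKM (log2 fold change 0.68 ± 0.17 SE, limma adjusted p = 0.00576, higher in 4 of 4). The blastocyst libraries lay above the morula libraries in these genes, with no overlap. Rpl10l (chr12:66283379-66284401, minus strand) gave 109, 104, 116 and 97.4 FPKM in control morulae and 64.2, 66.1, 80.1 and 74.0 in control blastocysts (log2 fold change -0.67 ± 0.13 SE, limma adjusted p = 0.00104, lower in 4 of 4). Rpl7a (chr2:26910764-26913318, plus strand) gave 859, 833, 839 and 785 and 529, 509, 681 and 679 FPKM (log2 fold change -0.57 ± 0.14 SE, limma adjusted p = 0.00460, lower in 4 of 4). Both sets of morula values were above all blastocyst values, whereas Rpl8 overlapped on FPKM as deposited but not after scaling, with 848, 611, 506 and 486 and 321, 432, 521 and 482 FPKM (log2 fold change -0.55 ± 0.17 SE, limma adjusted p = 0.0145, lower in 3 of 4), and was not called on FPKM as deposited (adjusted p = 0.0652). Rps27l, Rps4l, Rps28, Rps23, Rps20, Rpl10l, Rpl7a and Rpl8 kept their calls whichever library was left out. Rplp0 (log2 fold change -0.43 ± 0.13 SE, limma adjusted p = 0.0162, lower in 4 of 4) lost its call only without morula control 2 (adjusted p = 0.0567).

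Other calls rested on particular libraries, and the adjusted p (limma) without each such library was as follows. Rpsa, the laminin-binding small subunit protein (log2 fold change 0.40, adjusted p = 0.0400), was lost without morula control 2 (0.122), morula control 7 (0.0907), morula control 8 (0.106), blastocyst control 4 (0.0590) and blastocyst control 6 (0.108). Rps2 (-0.47, adjusted p = 0.0386) was lost without morula control 1 (0.0758), morula control 2 (0.118), blastocyst control 1 (0.0936), blastocyst control 4 (0.0698), blastocyst control 5 (0.0617) and blastocyst control 6 (0.0531). Rpl41 (-0.53, adjusted p = 0.0288) was lost without morula control 7 (0.0846), morula control 8 (0.0862), blastocyst control 4 (0.0916) and blastocyst control 5 (0.0719). Rpl7 (-0.46, adjusted p = 0.0237) was lost without morula control 2 (0.0720), morula control 7 (0.0691), morula control 8 (0.0520) and blastocyst control 5 (0.0795). Rps27 (0.61, adjusted p = 0.0434) was lost without morula control 1 (0.120), morula control 2 (0.0900), morula control 8 (0.0537), blastocyst control 1 (0.0726) and blastocyst control 5 (0.114). Rpl17 (0.58, adjusted p = 0.0388) was lost without morula control 1 (0.102), morula control 2 (0.104), morula control 8 (0.0788), blastocyst control 1 (0.0862) and blastocyst control 6 (0.0779). Rpl28 (0.41, adjusted p = 0.0259) was lost without morula control 2 (0.0507), morula control 7 (0.0829), morula control 8 (0.0519), blastocyst control 5 (0.0547) and blastocyst control 6 (0.0850), and Rpl29 (-0.43, adjusted p = 0.0208) without blastocyst control 5 (0.0573) and blastocyst control 6 (0.0658). Of these genes, Rpl17, Rpl41 and Rpsa overlapped between the stages on FPKM as deposited and after scaling, Rps2 and Rpl29 only as deposited and Rps27 only after scaling, and Rpl7 and Rpl28 on neither. Rps2 and Rpl29 also lost their calls on FPKM as deposited, and Rps27, Rpl28 and Rpsa after division by the library total. Without the filter on low FPKM, Rpsa, Rps2, Rpl41, Rpl7, Rps27 and Rpl17 were not called.

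Shorter members tended to be the higher ones in blastocysts. Over the 80 members tested that have an annotated coding sequence, the log2 fold change from control morula to control blastocyst had a Spearman correlation of -0.49 with the length of the longest coding sequence, a description across genes that are not independent replicates. Members with less than the median coding length of 456 bases had a median log2 fold change of 0.15 (40 genes) and the others of -0.13 (40 genes). The 9 coding members called higher had a median coding length of 405 bases and the 8 called lower of 784.5. The same relation varied between libraries of one group. Measured on each library's deviation from the control mean of its stage over 81 members, the correlation with coding length was 0.20, 0.39, -0.38 and -0.38 in control morulae 1, 2, 7 and 8, -0.15, -0.40 and -0.33 in KD morulae, -0.34, 0.51, 0.20 and -0.42 in control blastocysts 1, 4, 5 and 6 and 0.33, -0.44, 0.24 and 0.16 in KD blastocysts. At the 2-cell stage it was -0.27, -0.27, 0.40 and 0.12 in control and -0.15, -0.27 and -0.10 in KD embryos. Control libraries are measured here from their own mean, so the presence of both signs among them follows from that centring, while the size of the correlations does not. The signs in control libraries cannot be set against those in the KD groups. Of the KD groups, the blastocysts held correlations of either sign and the 2-cell embryos and morulae negative ones only. The part of this spread in the fold changes was not tested. Across members, the correlation with coding length was 0.29 for control morula against 2-cell (81 members), -0.24 for KD against control at the 2-cell stage (81), -0.31 in morulae (80) and 0.13 in blastocysts (80).

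**Figure D3:**
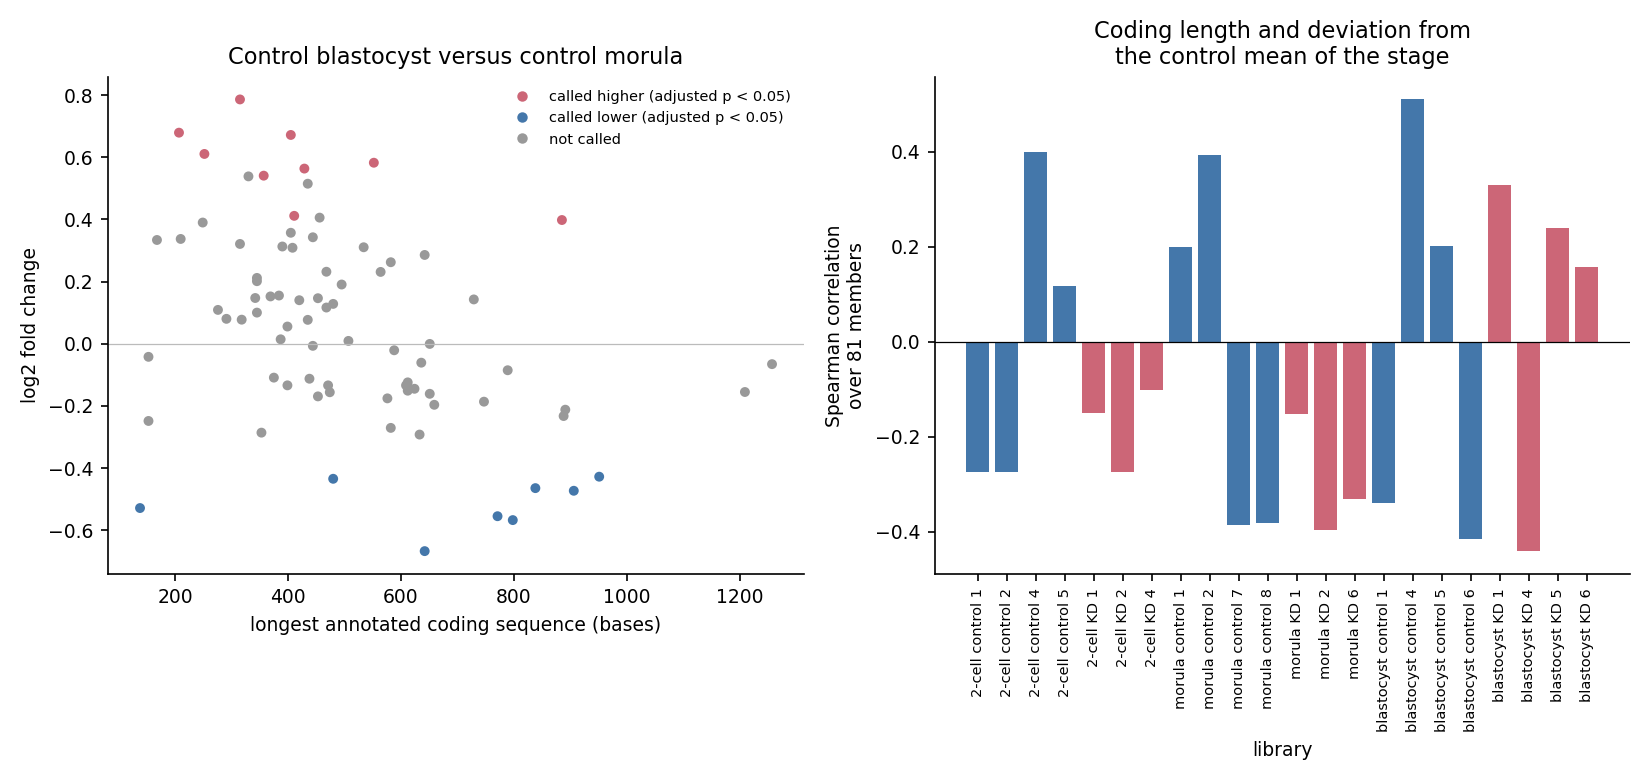
Left, log2 fold change of 80 ribosomal protein genes between control blastocysts and control morulae against coding length in bases (called higher, red; called lower, blue; not called, grey). Right, Spearman correlation of coding length with the deviation of 81 members from the control mean of their stage in each library (blue for control and red for KD), from -0.44 to 0.51. Control libraries are measured from their own mean, so the presence of both signs among them, though not their size, follows from the centring and is not compared with the KD groups.

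At the 2-cell stage, KD was not accompanied by a call in the family or elsewhere. Of 84 members tested none was called by limma in either direction (0% of all 12166 genes higher, 0% lower), and at an unadjusted p under 0.05 there were 3 members higher and 1 lower, beside 354 and 348 of all genes. Those 4 members, Rpl5, Rps7, Rpl34 and Rps15a, include 3 named after their values were seen (Rps7, Rpl34 and Rps15a). Rpl5 was 55.4, 43.99, 40.4 and 43.95 FPKM in control and 61.2, 98.9 and 65.6 in KD libraries, without overlap (log2 fold change 0.74 ± 0.19 SE, limma adjusted p = 0.825, higher in 3 of 3). Rps7 was 54.4, 47.4, 54.5 and 65.5 and 95.9, 71.1 and 80.8 FPKM (log2 fold change 0.63 ± 0.17 SE, limma adjusted p = 0.825, higher in 3 of 3). Rps15a was 56.0, 40.4, 29.1 and 26.0 and 10.9, 32.0 and 10.8 FPKM, with KD library 2 inside the control range (log2 fold change -1.09 ± 0.37 SE, limma adjusted p = 0.825). The median over members was 0.10 against 0.00 for all genes tested, with 59 members above 0, and it was -0.00310 after division by the library total, which put the median of all genes at -0.08. The median deviation of the members from their control mean was 0.17, 0.09, -0.23 and -0.02 in control and 0.15, 0.26 and -0.12 in KD libraries, with overlap. Among library numbers 1 and 2 the median log2 fold change of the members was 0.09 and among higher numbers 0.00.

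In morulae 1 member passed the test in each direction after KD, and the fold changes of most others were positive without passing it. Of 83 members tested, 76 had a log2 fold change above 0, and the median was 0.27 against 0.02 for all genes tested. The calls were 1 member higher (Rps29) and 1 lower (Rpl10l), where 4.33% of the 10994 genes tested were higher and 8.98% lower. At an unadjusted p under 0.05 there were 24 members higher and 1 lower, beside 1427 and 1927 of the 10994 genes. Deposited values without further scaling gave a member median of 0.15 with all genes at -0.09, and values divided by the library total 0.09 with all genes at -0.13. Relative to all genes the members were thus higher by 0.254, 0.232 and 0.223 in these scalings. The median deviation of the members from their control mean was -0.15, -0.02, 0.09 and 0.10 in control and 0.19, 0.26 and 0.34 in KD libraries, without overlap. Among library numbers 1 and 2 the median log2 fold change of the members was 0.30 and among higher numbers 0.26, with large subunit genes at 0.26 and small subunit genes at 0.29 over all libraries. A term that separated library numbers 1 and 2 from higher numbers raised the count called higher to 21 of 83 members with 1 lower, where 7.19% of all genes were higher and 11.4% lower.

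Rps29 (chr12:69157722-69159186, minus strand), a zinc-binding protein of the small subunit, was 524, 476, 533 and 509 FPKM in control morulae and 654, 709 and 616 in KD morulae, and all KD values exceeded all control values (log2 fold change 0.49 ± 0.13 SE, limma adjusted p = 0.0320, higher in 3 of 3). The call was kept without control 1 (limma adjusted p = 0.0243) and lost without control 2 (0.0805), control 7 (0.0592), control 8 (0.0591), KD 1 (0.0831), KD 2 (0.148) or KD 6 (0.0642). It was also lost after division by the library total (0.0583) and without the filter on low FPKM (0.0769). Rpl10l was 109, 104, 116 and 97.4 FPKM in control and 67.9, 60.3 and 68.7 in KD morulae, again with no overlap (log2 fold change -0.57 ± 0.14 SE, limma adjusted p = 0.0238, lower in 3 of 3). Its call was kept without control 1 (limma adjusted p = 0.0135) or KD 6 (0.0339) and lost without control 2 (0.0501), control 7 (0.0655), control 8 (0.0523), KD 1 (0.0881) or KD 2 (0.115), and without the filter on low FPKM (0.0553). Rpl10l was not called either with the library number as a replicate block. Without control 1 the members called higher were 4, among them Rps29 and Rpl14, without control 2 they were 2, among them Rps7, without control 7 there was 1 (Rpl17; Rps7 and Rpl17 are named after their values were seen), and without control 8 or any KD library there was none. The Rpl10l values of KD morulae were close to those of control blastocysts (64.2, 66.1, 80.1 and 74.0 FPKM), and its share of the pair with Rpl10 was 4.93% in KD and 7.84% in control morulae.

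The largest log2 fold change in KD morulae was that of Rps15a, named after its values were seen and also the member of most negative log2 fold change in 2-cell KD embryos, with 235.4, 65.6, 219 and 157 FPKM in control and 332, 191 and 355 in KD libraries, which overlapped (log2 fold change 1.02 ± 0.39 SE, limma adjusted p = 0.108). Rps27l was 673, 587, 849 and 779 FPKM in control and 892, 1026 and 1106 in KD morulae (log2 fold change 0.61 ± 0.18 SE, limma adjusted p = 0.0510, higher in 3 of 3), without overlap. On FPKM as deposited it was called higher (adjusted p = 0.0426), and it was also called higher with a term that separated library numbers 1 and 2 from higher numbers (limma adjusted p = 0.00562), which also gave a call for Rps15a. Rpl14 was 831, 742, 771 and 751 and 934, 894 and 949 FPKM (log2 fold change 0.38 ± 0.12 SE, limma adjusted p = 0.0598, higher in 3 of 3), and the most negative log2 fold changes of the family after Rpl10l were those of Rps14 (-0.23) and Rpl3 (-0.20). Rpl3 was 732, 619, 697 and 724 FPKM in control and 569, 478 and 614 in KD morulae, with no overlap on FPKM as deposited and with overlap after scaling, without passing the test (log2 fold change -0.20 ± 0.15 SE, limma adjusted p = 0.375).

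**Figure D4:**
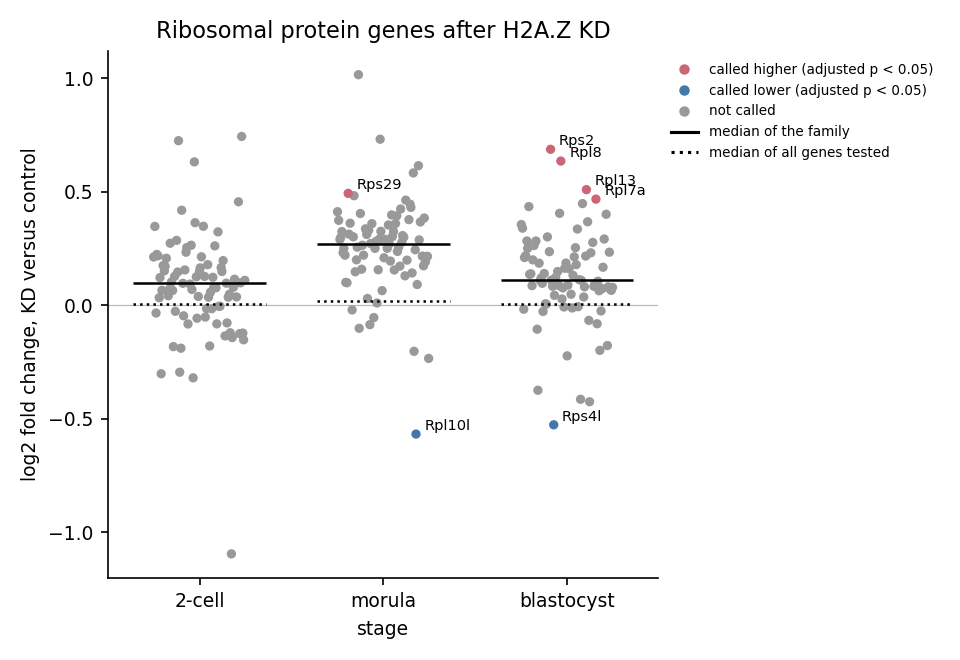
Log2 fold change between KD and control for each member tested (84 at the 2-cell stage, 83 in morulae and blastocysts), with genes called higher in red, called lower in blue and others in grey, the family median as a solid line and the median of all genes tested as a dotted line. The family medians are 0.10, 0.27 and 0.11, and the 2-cell median was -0.00310 after division by the library total.

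In blastocysts KD was accompanied by a higher level of 4 members and a lower level of 1. Of 83 members tested, Rps2, Rpl8, Rpl13 and Rpl7a were called higher and Rps4l lower, where 16.7% of the 11804 genes tested were higher and 19.8% lower. At an unadjusted p under 0.05 there were 6 members higher and 1 lower, beside 2573 and 2861 of the 11804 genes. The median log2 fold change was 0.11 for the members, 67 of which were above 0, and 0.01 for all genes tested. Relative to all genes the members were higher by 0.107, by 0.107 on FPKM as deposited and by 0.126 after division by the library total. The split of 4 higher and 1 lower became 6 and 1 on FPKM as deposited, where 15.1% of all genes were higher and 20.1% lower, and 19 and 0 after division by the library total, where these were 17.7 and 16.2%. The share of members called higher was below that of all genes here and on FPKM as deposited and above it after division by the library total (22.9%). The median deviation of the members from their control mean was 0.21, -0.18, -0.11 and 0.09 in control and 0.17, 0.40, -0.13 and 0.09 in KD libraries, which overlapped. Large subunit genes had a median of 0.14 and small subunit genes of 0.08. Between the libraries numbered 1 the median log2 fold change of the members was -0.04 and among higher numbers 0.19. Without KD 5 there were 8 members called higher, and without control 4, control 6, KD 1 or KD 6 there were 2, while without KD 4 there were 2 called lower, the added gene being Rpl17.

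Rps2 (chr17:24718116-24721929, plus strand), a small subunit protein at the mRNA entry tunnel, was 709.6, 1018, 1064 and 1088 FPKM in control and 1504, 1238, 1611 and 1838 in KD blastocysts (log2 fold change 0.69 ± 0.17 SE, limma adjusted p = 0.00777, higher in 4 of 4). Rpl8 (chr15:76904078-76906314, plus strand), a large subunit protein near the catalytic centre, was 321, 432, 521 and 482 and 612, 555, 877 and 669 FPKM (log2 fold change 0.64 ± 0.16 SE, limma adjusted p = 0.00957, higher in 4 of 4). Every KD library was above every control library for both genes, and both calls were kept in all 15 alternatives run. Rpl13 (chr8:123102350-123105244, plus strand) was 1045, 1376, 1427 and 1336 and 1938, 1727, 1756 and 1877 FPKM (log2 fold change 0.51 ± 0.16 SE, limma adjusted p = 0.0230, higher in 4 of 4). Rpl7a was 529, 509, 681 and 679 and 838, 784, 892 and 762 FPKM (log2 fold change 0.47 ± 0.16 SE, limma adjusted p = 0.0329, higher in 4 of 4). In these genes, too, the groups were apart, but the calls rested on particular libraries. Rpl13 was lost without control 4 (0.0538), control 6 (0.0613), KD 1 (0.0634) and KD 6 (0.0662), the value in brackets being limma's adjusted p. Rpl7a was lost without control 1 (0.0517), control 4 (0.126), control 5 (0.0532), control 6 (0.0514), KD 1 (0.0794), KD 4 (0.0619) and KD 6 (0.0582) and kept without KD 5 (0.0346).

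Rps4l was 391, 473, 486 and 441 FPKM in control and 252, 318, 352 and 319.7 in KD blastocysts (log2 fold change -0.53 ± 0.14 SE, limma adjusted p = 0.0129, lower in 4 of 4). No KD value reached the control range, the call was kept whichever library was left out, and it was lost after division by the library total (adjusted p = 0.0517). Rps2, Rpl8 and Rpl7a were also among the members lower in control blastocysts than in control morulae, and Rps4l among those higher. KD morulae and KD blastocysts measured 1513, 1546 and 1228 and 1504, 1238, 1611 and 1838 FPKM for Rps2, and control morulae and control blastocysts 1610.1, 1526, 993 and 997 and 709.6, 1018, 1064 and 1088. The comparisons share the control blastocysts, and a high or low value of these libraries moves both, so their fold changes are given side by side and were not compared. For Rpl8 the log2 fold changes were -0.55 (control blastocyst against morula) and 0.64 (KD against control), for Rpl7a -0.57 and 0.47, for Rps2 -0.47 and 0.69, and for Rps4l 0.73 and -0.53.

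No member had a KD effect shown to differ between morulae and blastocysts. In the fit with both stages, 0 of 83 members were called by limma in either direction for the difference of the KD effects (blastocyst minus morula), where 5.44% of the 12695 genes tested were higher and 6.31% lower. At an unadjusted p under 0.05 there were 1 member higher (Rpl8, 0.59 ± 0.22 SE, limma adjusted p = 0.0967) and 6 lower (all genes, 1671 and 1789), among them Rps4l (-0.48 ± 0.17 SE, adjusted p = 0.0826) and Rps28 (-0.55 ± 0.25 SE, adjusted p = 0.168). The median over members was -0.16 against -0.01 for all genes. It was 0.16 after division by the library total, where all genes stood at 0.24, so the sign of the median held relative to all genes (-0.154 and -0.0771) but not on its own. Rpl17 was called lower without morula control 7 or without blastocyst KD 4, which made the count 1, and division by the library total called Rpl7a higher.

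Among the members with further tasks other than Rpl10l and Rps4l, whose calls are given above, no KD fold change passed the test with all libraries and this scaling unless a further term was added. The stalk genes had log2 fold changes of 0.26 (Rplp0), 0.22 (Rplp1) and 0.37 (Rplp2) in morulae and 0.45, 0.30 and 0.29 in blastocysts. With all libraries, this scaling and no further terms, none of them was called by limma (lowest adjusted p = 0.0547). With a term that separated library numbers 1 and 2 from higher numbers, Rplp2, Rpl11, Rpl38 and Fau were called higher in KD morulae (limma adjusted p = 0.0293, 0.0484, 0.0355 and 0.0258). Rplp0 was 1049, 1264, 1214 and 1187 FPKM in control and 1613, 1708, 1365 and 1725 in KD blastocysts, with no overlap on FPKM as deposited and with overlap after scaling, and it was called without KD 5 (limma adjusted p = 0.00734), on FPKM as deposited (0.0172) and after division by the library total (0.00439). Rpl5 and Rpl11 had 0.33 and 0.33 in morulae and 0.08 and 0.16 in blastocysts. Rps6, Rps19 and Rps14 had 0.20, 0.28 and -0.23 in morulae and 0.11, 0.22 and 0.08 in blastocysts. Of the fusion genes, Fau was 718, 765, 827 and 801 FPKM in control and 932, 948 and 965 in KD morulae (log2 fold change 0.41, limma adjusted p = 0.0831, higher in 3 of 3) and 694, 717, 769 and 838 and 962, 1093, 867 and 924 in blastocysts (0.36, adjusted p = 0.114, higher in 4 of 4). Its groups did not overlap in morulae, and in blastocysts they were apart on FPKM as deposited and overlapped after scaling. In blastocysts it was called without KD 5 (0.0330), on FPKM as deposited (0.0473) and after division by the library total (0.0112). Rps27a had 0.16 and 0.01 at these stages. Rpsa, Rpl10, Rpl22, Rpl38 and Rpl41 had 0.17, 0.16, 0.26, 0.40 and 0.30 in morulae and 0.04, -0.01, 0.00, 0.14 and 0.37 in blastocysts. None of these was called with all libraries, this scaling and no further terms. Rpl41 was called higher in KD blastocysts after division by the library total, and Rpl38 in KD morulae with the library number as a replicate block. The paralogs Rps27l and Rpl39l had 0.07 and 0.19 in KD blastocysts, and Rpl39l 0.06 in KD morulae, while Rpl36al and Rpl7l1 had 0.18 and 0.12 in KD morulae and -0.14 and 0.23 in KD blastocysts, with no call.

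A list of ribosomal genes outside the symbol rule (7 tested, among them Rps3a1, Rpl22l1, Rpl36al, Rpl7l1, Rack1 and Rps19bp1) held a gene whose KD effect differed between the stages. Rpl22l1, the paralog that can stand in for Rpl22, was 54.9, 47.3, 54.5 and 59.3 FPKM in control and 55.5, 58.0 and 64.9 in KD morulae. In blastocysts it was 245, 155, 185 and 199.96 in control and 66.6, 117, 95.7 and 111 in KD libraries (log2 fold change -1.004 ± 0.22 SE, limma adjusted p = 0.00431, lower in 4 of 4), every KD value lying between the morula and the control blastocyst values. The difference of its KD effect between the stages was -1.30 ± 0.29 SE (limma adjusted p = 0.00785), called in all 20 alternatives. Rack1, a scaffold protein on the small subunit, was 277, 309, 590.4 and 573 FPKM in control and 813, 709.9, 809.5 and 745 in KD blastocysts (log2 fold change 0.90 ± 0.22 SE, limma adjusted p = 0.00798, higher in 4 of 4), with control libraries 1 and 4 well below control libraries 5 and 6 and an adjusted p of 0.00530 to 0.0513 over its alternatives. Over the list, 0 genes were called in 2-cell KD embryos and in KD morulae (unadjusted p under 0.05, 0 and 2 higher), and 1 was higher and 1 lower in KD blastocysts (all genes, 16.7 and 19.8%). In control embryos 6 were higher and 0 lower from 2-cell to morula (all genes, 43 and 40.3%), and 1 was higher and 3 lower from morula to blastocyst (all genes, 27.6 and 29.1%).

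Letters of the promoter sequences were counted for members and for all genes, and a difference between them was not tested. RefSeq sequences (GRCm38.p6) from 250 bases before to 50 after the annotated start were at hand for 62 members, with 74 starts, beside 32841 starts of all genes. On either strand, the letters CCGGAAG occurred in 35.1% against 8.86% of the starts of members and of all genes, GGGCGG in 58.1% against 35.7%, AAGATGG in 16.2% against 6.34%, CACGTG in 10.8% against 7.15% and CCAAT in 29.7% against 37.4%. A C followed by at least 6 pyrimidines (C or T) within 50 bases of either side of the start was found on the transcribed strand in 83.8% against 40.8%. The annotated start itself was a C followed by at least 4 pyrimidines in 20.3% against 2.50%, which came to 15 members. A match is a description of letters and not a binding site. The 15 were set apart by the annotated start alone. Since a run near the start was found in 83.8% of member starts, the other members were not shown to lack a TOP tract. The 15 include the pseudogene Rpl32l. These 15 members had a median log2 fold change of 0.34 in KD morulae and 0.14 in KD blastocysts, and the other members with a promoter entry had 0.27 and 0.12. With all libraries, the main scaling and no further terms, none of the 15 was called by limma after KD. At an unadjusted p under 0.05, 9 were higher and 0 lower in morulae. That stood beside 10 and 1 of the 46 other members with an entry and 1427 and 1927 of all 10994 genes. Without control 1, 1 of the 15 was called higher in KD morulae (all genes, 5.25%). In KD blastocysts 1 was called higher on FPKM as deposited (all genes, 15.1%), 1 without KD 5 (15.4%) and 2 after division by the library total (17.7%). With a term that separated library numbers 1 and 2 from higher numbers, 6 of the 15 were called higher in KD morulae, beside 21 of all 83 members tested and 7.19% of all genes. These 6 were Fau, Rpl14, Rpl38, Rplp2, Rps15a and Rps21, with Rps21 named after its values were seen. From 2-cell to morula in control embryos the medians were 2.40 and 2.44.

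Start windows are shown for Fau, Rpl14, Rps27 and Rpl38 as examples of such a start among the members described above, and others with this start are not shown. Each runs from 15 bases before the annotated start over 30 bases in the direction of transcription (RefSeq, GRCm38.p6), with the start C and the pyrimidines that follow it in capitals. Fau lies at chr19:6057932-6057961 on the plus strand, Rpl14 at chr9:120571502-120571531 on the plus strand, Rps27 at chr3:90213634-90213663 on the minus strand and Rpl38 at chr11:114668565-114668594 on the plus strand.
Fau: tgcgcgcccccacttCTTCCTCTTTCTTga
Rpl14: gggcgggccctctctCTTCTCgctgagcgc
Rps27: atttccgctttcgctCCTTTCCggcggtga
Rpl38: agcggaagcctcgttCTTTCCCCgttctct

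Other genes with TOP mRNAs, most but not all of them for translation, were also higher in morulae than in 2-cell embryos. Of 20 such genes tested (elongation factors, poly(A)-binding proteins, subunits of initiation factor eIF3 and others), 20 were called higher in control morulae than in 2-cell embryos, against 43% of all genes (median log2 fold change 1.72), and 1 higher and 10 lower in control blastocysts than in morulae, against 27.6 and 29.1% of all genes (median -0.50). After KD none was called at the 2-cell stage (unadjusted p under 0.05, 0 higher and 1 lower), 2 were higher in morulae (Pabpc4 and Btf3, log2 fold changes 0.51 and 0.42) and 7 in blastocysts (median 0.40), with 0 lower at either stage. The shares of all genes called were 4.33% higher and 8.98% lower in KD morulae, and 16.7% higher and 19.8% lower in KD blastocysts. Those 7 were Eef1d (0.69), Eef2 (1.08), Tpt1 (0.43), Pabpc1 (0.65), Pabpc4 (1.15), Eif3l (0.43) and Ipo5 (1.15). Regulators of TOP mRNA translation were called higher in KD morulae for 2 of 9 tested (Rps6kb1, the S6 kinase, 0.76, and Eif4ebp1, an inhibitor of cap binding, 0.67) and in KD blastocysts for 4 of 8 (Larp1, which binds TOP mRNAs, 0.70, Larp1b 1.13, Eif4ebp1 0.95 and the cap-binding protein gene Eif4e 0.52), with 0 lower at either stage. Others of this list had negative fold changes without a call, namely Mlst8 (-0.88 in KD morulae, limma adjusted p = 0.0632) and Mtor (-0.46 in KD morulae and -0.55 in KD blastocysts, adjusted p = 0.115 and 0.0772), subunits of the kinase complex that signals to TOP mRNAs. In control embryos this list had 4 of 10 genes higher and 5 lower from 2-cell to morula, and 0 of 8 higher and 6 lower from morula to blastocyst, where the shares of all genes are those given above. None of its 10 genes passed at an unadjusted p under 0.05 in 2-cell KD embryos.

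Among genes that escort ribosomal proteins or belong to the p53 pathway, some were called after KD. Of 9 chaperones and assembly factors tested, 4 were called higher and 0 lower in KD blastocysts (against 16.7 and 19.8% of all genes), namely Grwd1, the chaperone of Rpl3 (log2 fold change 1.38 ± 0.23 SE, limma adjusted p = 0.000823), Tsr2, that of Rps26 (1.01, adjusted p = 0.000404), Heatr3 (0.49) and Aamp (1.04), higher in 4 of 4 KD libraries for the first pair. For Grwd1 and Tsr2 the KD effect differed between morulae and blastocysts (1.22 and 0.89, limma adjusted p = 0.0349 and 0.00841). In KD morulae and 2-cell KD embryos 0 of these 9 genes were called (unadjusted p under 0.05, 0 in morulae and 1 lower at the 2-cell stage), and in control embryos 5 were higher and 1 lower from 2-cell to morula (all genes, 43 and 40.3%) and 0 higher and 8 lower from morula to blastocyst (median -1.02; all genes, 27.6 and 29.1%). A further 5 genes of the p53 pathway were listed for its link to ribosomal stress, and whether such stress was present was not tested. Of these, Mdm2, Cdkn1a and Ccng1 were called higher in KD morulae (0.999, 1.71 and 1.30), where 4.33% of all genes were higher and 8.98% lower. In KD blastocysts Mdm2 (1.56), Trp53 (1.19), Cdkn1a (1.964) and Ccng1 (1.12) were higher and Mdm4 (-0.67) lower. None of them passed at an unadjusted p under 0.05 in 2-cell KD embryos, and in control embryos 3 were higher and 2 lower from 2-cell to morula and 1 higher and 0 lower from morula to blastocyst, beside the same shares of all genes.

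Genes for the proteins of mitochondrial ribosomes, which are encoded in the nucleus like the cytoplasmic set, had median KD fold changes below 0 in morulae and blastocysts, and a difference from the cytoplasmic set was not tested. Of 78 such genes tested in morulae, 0 were called higher and 16 lower after KD, against 4.33 and 8.98% of all genes (median log2 fold change -0.31), and in blastocysts 5 higher and 37 lower, against 16.7 and 19.8% of all genes (median -0.48). The cytoplasmic members had 1 and 1 of 83 in morulae and 4 and 1 of 83 in blastocysts. On values divided by the library total the mitochondrial list had medians of -0.49 and -0.38, so its sign did not change with that scaling. In 2-cell KD embryos 0 of 74 were called (unadjusted p under 0.05, 0 higher and 5 lower). Their share of the summed FPKM of all genes was 1.07 ± 0.0491% in control and 0.813 ± 0.0300% in KD morulae, and 1.11 ± 0.0383% in control and 0.928 ± 0.0423% in KD blastocysts (mean ± SD). In control embryos 71 of 78 were higher and 0 lower from 2-cell to morula (median 2.102; all genes, 43 and 40.3%), and 28 were higher and 10 lower from morula to blastocyst (median 0.22; all genes, 27.6 and 29.1%).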

How the data were processed

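The authors aligned reads with STAR and deposited 1 table of FPKM per gene (StringTie 2.1.4, mm10/GRCm38), with a column for each of the 22 libraries and 0 columns without a sample. Only 13.1 to 58.8% of the lowest 1000 values per library fell within 0.02 of a whole step over 13491 single-exon genes of at least 300 bases, so whole reads were not recovered and depth per library is unknown. The table lists 13853 genes at 0 in every library. Gene IDs matched GENCODE M21 with the same version for 54587 genes, including all 84 members, which gave positions, coding lengths and the 100-base windows.

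FPKM was divided by a median-of-ratios factor per library, a pseudocount of 1 was added and log2 taken, so a fold change is on the log2(value + pseudocount) scale and understates that of low genes. Each of the 6 comparisons was fitted in limma 3.58.1 (R 4.3.3; lmFit, eBayes with trend) with only its own libraries, over genes at FPKM of at least 1 in at least 3 of them, and adjusted by Benjamini-Hochberg over all genes tested. A gene was called at an adjusted p under 0.05. The fits other than that of the difference of KD effects were tested on simulated data with a log2 change of size 1 in 200 genes. They called 60.5 to 65% of these genes, so a gene without a call was not shown to be unchanged. Summaries and plots used Python 3.11.15, pandas 2.3.3, numpy 2.4.6 and matplotlib 3.10.9.

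Genes were named by a rule: the 3 members of largest positive and the 3 of largest negative log2 fold change among those called in each comparison, a set of members and relatives with known further tasks, the 3 members of highest and the 3 of lowest mean FPKM, and H2afz and H2afv. Exceptions are marked as named after their values were seen, and some genes of the rule and lists are not reported here. The lists, like the members, were chosen with earlier results of these data known. They covered ribosomal genes outside the symbol rule, other genes with TOP mRNAs, ribosomal protein chaperones and regulators of TOP mRNA translation. Further lists held p53 pathway genes listed for ribosomal stress, mitochondrial ribosomal proteins and the stage and cell type markers. Alternatives were another pseudocount, no filter, other scalings, each library left out, library numbers as a block or a term, and members with mostly unique windows.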

Additional observations from a re-analysis of the deposited data

Results flagged for a closer look

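In 5 of 152 groups of 4 libraries, over 37 of the named genes and the family share, a library stood far from the other 3, which is 3.29%, and chance marks about 1 in 20 such groups. Rpl3l was at 0.0506 FPKM in blastocyst control 6 and listed at 0 in the other control blastocysts. Rpl22 was at 76.2 FPKM in 2-cell control 1, above 20.1, 25.2 and 19.0 in the others. In blastocyst KD 4, Rpl22 reached 94.3 FPKM (others 74.4, 75.3 and 75.7) and Rpl38 585 (others 429.5, 431 and 444). That library also had the highest family share of the KD blastocysts (10.6%). Rpl6l was at 28.6 FPKM in morula control 8, below 37.4, 36.1 and 36.3 in the others.

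The KD effect differed between stages by the interaction term for a pair of named genes. For Rpl22l1 the log2 fold change in blastocysts minus that in morulae was -1.30 (limma adjusted p = 0.00785), with -1.004 in blastocysts and 0.26 in morulae. For H2afv, which like H2afz encodes H2A.Z, it was 1.04 (limma adjusted p = 0.0208, 0.00188 to 0.0661 over the alternatives), with -1.86 and -2.94.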

How the results depend on the processing

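Division by the library total moved the median log2 fold change of members to -0.00310 (2-cell KD), 0.0894 (morula KD), 2.12 (control morula against 2-cell), -0.0300 (control blastocyst against morula) and 0.16 (difference of KD effects), and FPKM as deposited moved that of morula KD to 0.15. Relative to all genes, an alternative chosen after seeing the data, these medians kept their sign under every scaling. Members called higher and lower became 0 and 1 in KD morulae, 19 and 0 in KD blastocysts, 6 and 17 from control morula to blastocyst and 1 and 0 for the difference of KD effects after division by the total. Of all genes, division by the total gave 2.17% higher and 16.2% lower in KD morulae and 9.90 and 3.93% for that difference. On FPKM as deposited 2 members were higher in KD morulae (all genes, 2.56%), and 20 higher and 5 lower from control morula to blastocyst. Without the filter the counts were 0 and 0 in KD morulae (all genes, 0.39 and 0.86%). From control morula to blastocyst they were then 6 and 5 (all genes, 11.9 and 11.5%). With only members of at least 50% unique windows, 2 were higher in KD blastocysts, since fewer members were counted. The family share without mitochondrial-genome genes was 2.701, 2.76, 10.1, 11.1, 9.82 and 11.4% in the 6 groups, since the total is smaller. For the rest the cause was not tested.

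Leaving out 1 library in turn, members called higher ranged 0 to 4 and lower 0 to 1 in KD morulae, 2 to 8 and 1 to 2 in KD blastocysts, 5 to 14 and 4 to 8 from control morula to blastocyst, stayed at 83 and 1 from 2-cell to morula and at 0 in 2-cell KD embryos, and were 0 and 0 to 1 for the difference of KD effects. Medians ranged 0.02 to 0.20 (2-cell KD), 0.22 to 0.31 (morula KD), 0.05 to 0.21 (blastocyst KD), 2.36 to 2.56 and -0.00722 to 0.14 (control stages) and -0.23 to -0.08 (difference). Family shares ranged 2.05 to 2.13, 1.91 to 2.19, 8.61 to 8.76, 9.11 to 9.28, 7.94 to 8.28 and 9.54 to 9.94% over the 6 groups in order.

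With the library number as a replicate block, 9 members were called higher and 0 lower in KD morulae, where 5.88% of all genes were higher and 8.88% lower. Among the 9 were Rps15a, Rps27l and Rpl38 and 4 of the 15 members with a C start. In KD blastocysts Rplp0 joined the calls (all genes, 17.8% higher and 20.8% lower). With a term for the range of the numbers, 21 were higher in KD morulae (all genes, 7.19%). Libraries with the same number did not pair: their deviations from the group means correlated at 0.207, 0.0122 and 0.213 (2-cell), 0.1797 and 0.0955 (morula) and 0.0865, -0.113, 0.351 and 0.00195 (blastocyst), and not every library correlated best with its own number. In morulae, control and KD libraries from the same range of numbers (1 and 2, or higher) correlated at 0.0955 to 0.347, and those from different ranges at -0.277 to -0.0948.

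For the named genes other than H2afz and H2afv, 2437 of 2567 values stayed on their side of the threshold (within 1 SE where there was no call), 36 lost a call, 31 gained one, 63 without a call moved by more than 1 SE, and 0 reversed. Depth is unknown, so no counting error can be given for low genes such as Rpl3l.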
